A study of Mus musculus with 8 samples.

Results

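Skeletal muscle contributes contractile and calcium-handling transcripts to RNA taken from whole mouse ear, and 38 of these genes were followed in each of 8 ears. The members were a fixed list of gene symbols. No measured value enters the rule itself, but the list was chosen with earlier results of these data known. All 38 were found among the 41388 gene identifiers of the count tables, and all 38 passed the filter on low counts. The MC903 group held the ears of 4 adult wild-type mice of strain C57Bl/6 that received MC903, which is calcipotriol, a vitamin D analog, applied topically at 1 nmol each day for 12 days. The vehicle group held those of 4 adult wild-type C57Bl/6 mice that received the ethanol vehicle. The samples were whole tissue, so each library mixes epidermis, dermis, cartilage, nerve, fat and muscle. In such bulk RNA, fewer muscle cells and less RNA per muscle cell cannot be told apart. Nor can they be told from more RNA of other tissues or from less muscle in the piece taken. Ordered by role, the members comprise 9 thin filament genes, 10 thick filament genes, 10 genes of the Z-disc and cytoskeleton, 7 calcium-handling genes and 2 genes of energy and oxygen supply. By fibre type, 13 are typical of fast fibres, 7 of slow fibres and 18 of both.

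Skeletal muscle contracts when myosin heads of the thick filament pull on actin of the thin filament within the sarcomere, the repeating unit bounded by Z-discs. Contraction starts when calcium is released from the sarcoplasmic reticulum, binds troponin C and moves tropomyosin off the myosin sites, and it ends when a calcium pump returns the ion to the store. Fast and slow fibres are built from different paralogues of myosin, its light chains and the troponins, and small striated auricular muscles move the ear.

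Library totals were 12310466 to 15575518 counts in the MC903 group and 14223908 to 16837221 counts in the vehicle group, so that 3 counts, taken as the detection floor, corresponded to 0.178 to 0.244 CPM (counts scaled to a fixed library total). Cyp24a1, the vitamin D-degrading enzyme that vitamin D analogs induce, averaged 3837 ± 403 CPM in MC903 ears and 18.8 ± 1.73 CPM in vehicle ears (SD, n = 4 each), in the direction the labels give. Vehicle replicate 2 stood apart from the other libraries, since salivary protein gene Bpifa2 took 24.5% of its counts. The 10 salivary gland markers summed to 380454 CPM there, against 203 to 476 CPM in the other vehicle libraries and 228 to 307 CPM in MC903 libraries. Its scaling factor was 0.775, which raises its adjusted values relative to a scaling by library total alone. Levels are given as CPM after scaling by trimmed mean of M-values (TMM), or per kilobase of the deposited gene length (RPKM) where genes are compared with each other.

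Promoter sequence was available from RefSeq (build GRCm38.p6) for 29 of the 38 members, as the 250 bases before and 50 bases after the annotated start. The promoters of Acta1, Myh4, Atp2a1 and Tnni1 are shown because the results turn on these genes: the most abundant member, 2 of the members with large falls, and the member with the smallest difference. Capitals mark every match, on either strand, to 4 motifs. The first was CAGCTG, an E-box form recognised by myogenic factors of the MyoD family. The next was CTANNNNTAG, a loose form of the site of MEF2, a muscle transcription factor. Its N stands for any base, so a match need not be a MEF2 site. The CArG box is the site of serum response factor. The last was the TATA box form TATAAA, and a match on the opposite strand is printed as its reverse complement. RefSeq's starts can differ from those of the deposited gene models, by the most for Tnni1. The windows are chr8:123894726-123895025 on the minus strand, chr11:67237562-67237861 on the plus strand, chr7:126463024-126463323 on the minus strand and chr1:135799171-135799470 on the plus strand.
Acta1: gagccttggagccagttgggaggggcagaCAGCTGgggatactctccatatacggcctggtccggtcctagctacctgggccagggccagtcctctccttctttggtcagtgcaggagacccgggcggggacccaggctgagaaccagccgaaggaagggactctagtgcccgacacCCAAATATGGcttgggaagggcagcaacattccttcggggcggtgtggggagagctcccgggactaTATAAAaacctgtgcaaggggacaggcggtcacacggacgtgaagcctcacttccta
Myh4: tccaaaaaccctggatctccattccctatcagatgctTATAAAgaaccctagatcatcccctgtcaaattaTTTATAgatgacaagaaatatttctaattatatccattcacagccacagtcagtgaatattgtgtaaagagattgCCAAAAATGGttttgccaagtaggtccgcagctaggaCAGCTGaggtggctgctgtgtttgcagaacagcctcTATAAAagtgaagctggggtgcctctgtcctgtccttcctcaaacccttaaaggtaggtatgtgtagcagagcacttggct
Atp2a1: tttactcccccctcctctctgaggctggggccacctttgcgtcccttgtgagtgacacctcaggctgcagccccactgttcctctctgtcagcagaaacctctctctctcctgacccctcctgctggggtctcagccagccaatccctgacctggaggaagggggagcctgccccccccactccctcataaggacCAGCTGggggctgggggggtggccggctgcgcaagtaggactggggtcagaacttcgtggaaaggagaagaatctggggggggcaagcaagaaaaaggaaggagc
Tnni1: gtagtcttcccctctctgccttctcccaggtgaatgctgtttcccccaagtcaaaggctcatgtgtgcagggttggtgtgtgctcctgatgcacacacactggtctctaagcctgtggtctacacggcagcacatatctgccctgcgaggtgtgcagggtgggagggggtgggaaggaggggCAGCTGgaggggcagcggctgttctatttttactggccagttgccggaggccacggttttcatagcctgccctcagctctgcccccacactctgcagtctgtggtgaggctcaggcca
No 2 matches overlap in these 4 windows. Among the 29 member promoters, 13 (44.8%) held CAGCTG, against 16.1% of all 27025 promoters in the table. CTANNNNTAG occurred in 5 of the 29 (17.2%), against 3.70% of all promoters, and a CArG box in 4 (13.8%), against 1.57%. TATAAA was in 6 of the 29 (20.7%), against 14.2% of all promoters. These matches describe letters in the windows and were not set against the expression values.

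Muscle transcripts were on average lower in MC903 ears, but the libraries of both groups overlapped for every member. Summed over the 38 members, the level was 7745, 4351, 7381 and 13204 CPM in MC903 replicates 1 to 4, against 19683, 18452, 17750.4 and 6430.4 CPM in vehicle replicates 1 to 4. MC903 replicate 4 lay above the other MC903 libraries and above vehicle replicate 4, while vehicle replicate 4 lay below 3 of the 4 MC903 libraries. As a share of all counts, the members took 0.737%, 0.424%, 0.737% and 1.30% in MC903 replicates 1 to 4, against 2.21%, 1.43%, 1.97% and 0.724% in vehicle replicates 1 to 4. Vehicle replicate 4 had the lowest vehicle value for all 38 members. Within the MC903 group, replicate 4 had the highest value for 32 members and replicate 2 the lowest for 29.

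**Figure D1:**
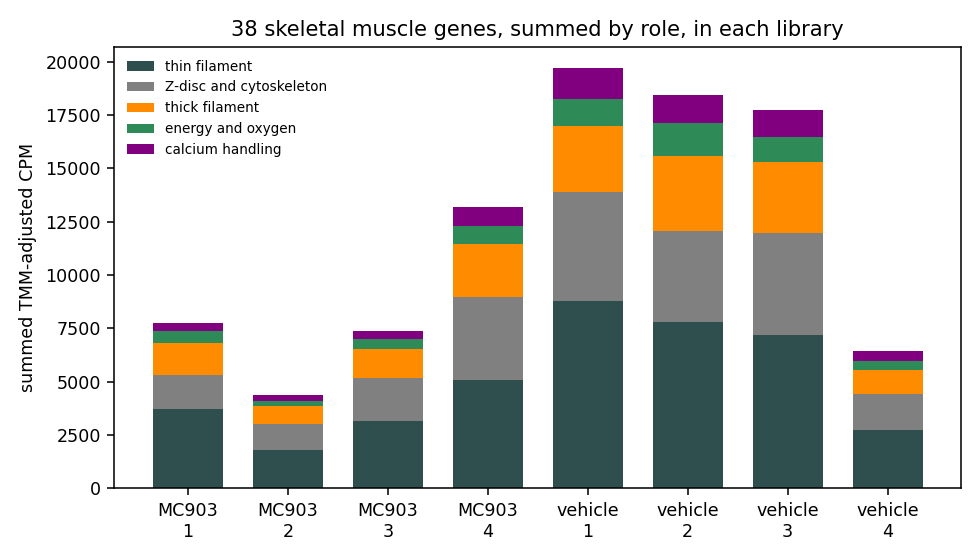
Summed TMM-adjusted CPM of the 38 members in each library, MC903 replicates 1 to 4 at the left and vehicle replicates 1 to 4 at the right, with colours for the 5 roles. MC903 replicate 4, at 13204 CPM, stands above the other MC903 libraries, and vehicle replicate 4, at 6430.4 CPM, stands far below the other vehicle libraries.

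The log2 fold change of MC903 over vehicle was below 0 for 38 of 38 members, with a median of -0.94, against 8436 of 16105 genes tested (52.4%) and a median of -0.03 over all of them. In edgeR's quasi-likelihood test with Benjamini-Hochberg adjustment over all genes tested, 10 of the 38 members (26.3%) were lower in MC903 ears. Of all genes tested, 20.2% were called lower, so the members' share of calls was near the background. No member was higher, at an adjusted or an unadjusted p under 0.05, in edgeR, DESeq2 or limma-voom, while 21.3% of all genes were called higher. At an unadjusted p under 0.05, 20 of the 38 were lower. The share of all genes at that looser threshold was not taken, so the 20.2% is no background for this count. The 4 MC903 libraries lay below all 4 vehicle libraries for 0 of 38 members, against 18.9% of all genes tested. The members called lower were Acta1, Myh4, Myh7, Myl3, Actn3, Atp2a1, Pvalb, Ryr1, Cacna1s and Trdn.

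**Figure D2:**
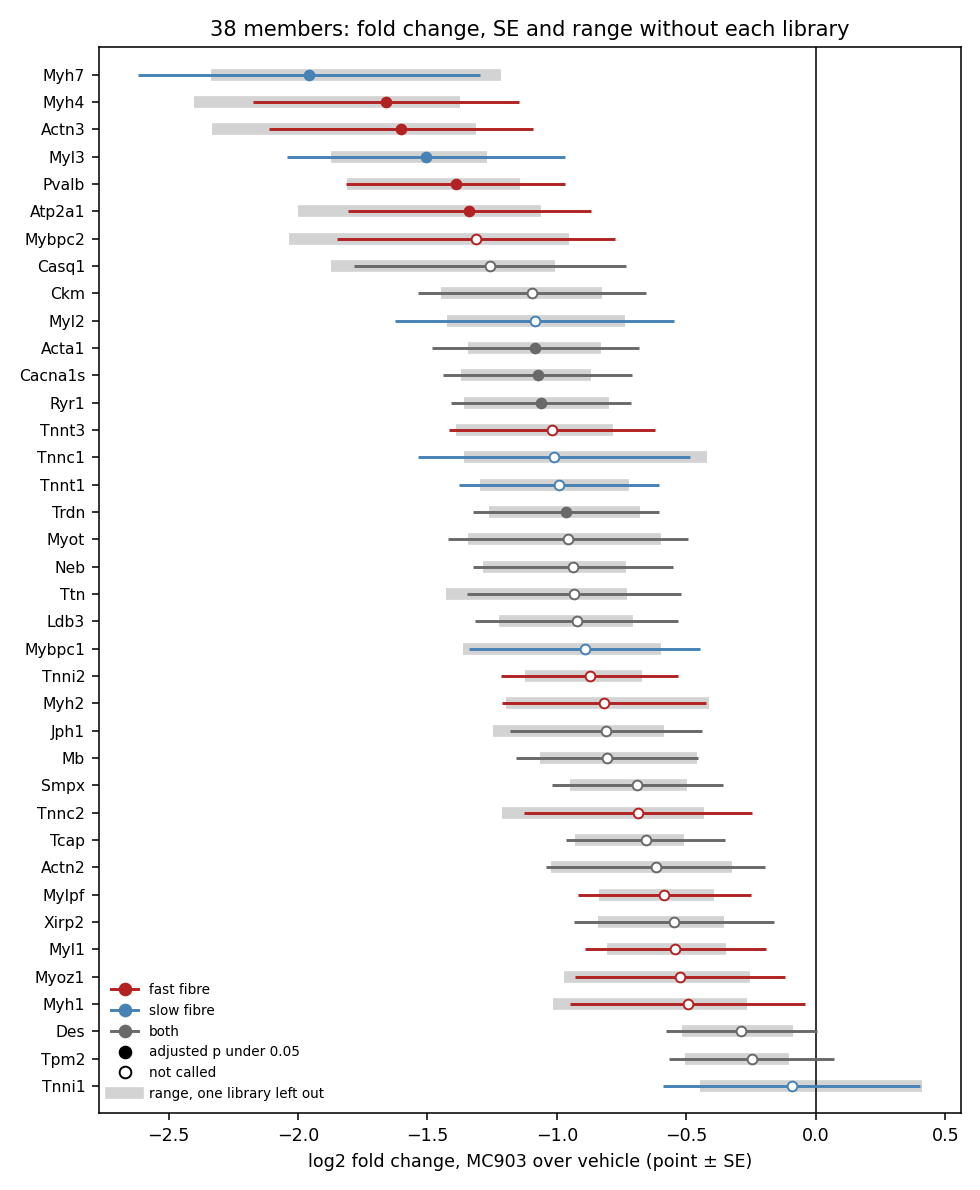
Log2 fold change of MC903 over vehicle for each member, with its SE as a line, filled where the adjusted p was under 0.05 and open where it was not, coloured by fibre type. Grey bands give the range of the fold change when 1 library at a time is left out. All 38 points lie below 0, and the band of Tnni1 reaches above 0.

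The number of calls changed with single libraries. Without MC903 replicate 1, MC903 replicate 3 or vehicle replicate 2 the fit called 0 members. At an unadjusted p under 0.05 these fits held 10, 11 and 11 members, again with no share over all genes taken. With MC903 replicate 2 or vehicle replicate 3 omitted the fit called 1 member, Pvalb in each case. With vehicle replicate 1 omitted it called 2, Myh4 and Myh7. Leaving out MC903 replicate 4, the MC903 library with the most muscle RNA, gave 22 members lower, against 20.6% of all genes tested. Leaving out vehicle replicate 4, the vehicle library with the least, gave 31 of 38 members lower, against 18.2% of all genes tested in that fit. Without vehicle replicate 2, the library with salivary transcripts, 17.1% of all genes tested were called lower. In the other fits with 0, 1 or 2 members called, that share ran from 15.6% to 20.3%. The count therefore ran from 0 to 31 with 1 library left out, whereas the median fold change of the members stayed below 0 in each of these fits.

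**Figure D3:**
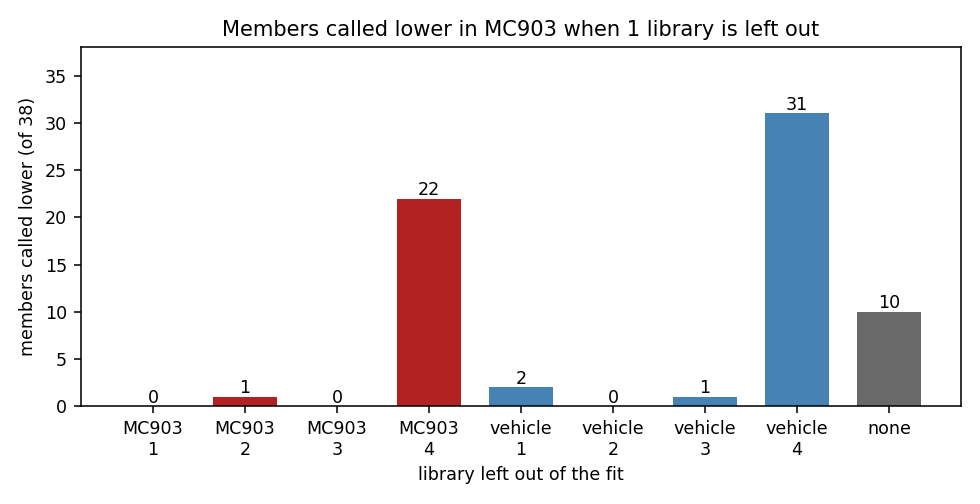
Number of the 38 members called lower in MC903 ears when the library named under each bar is left out, MC903 libraries at the left, then vehicle libraries, and the fit with none left out at the right. The bars run from 0 to 31, with 10 for the fit of all 8 libraries. With 1 library left out, 15.6% to 20.6% of all genes tested were called lower.

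Of the 9 thin filament genes, 1 fell and 8 did not pass the test, with a median log2 fold change of -0.94. Acta1, the actin of skeletal muscle fibres (chr8:123891767-123894736 in mm10, minus strand), had 1961, 694, 1443 and 2110.4 CPM in MC903 replicates 1 to 4, against 4738, 3836, 3205 and 1370.0 CPM in vehicle replicates 1 to 4. Its values in MC903 replicates 1, 3 and 4 lay above that of vehicle replicate 4, and the other vehicle libraries lay above all of the MC903 group. Acta1 fell in the fit of all libraries (log2 fold change -1.08 ± 0.40 (SE), adjusted p = 0.0485), and it kept the call only without MC903 replicate 4 or vehicle replicate 4. Per kilobase it was the most abundant member, at 1083 ± 446 RPKM in MC903 ears and 2294 ± 994 RPKM in vehicle ears (SD, n = 4 each). Tnnt3, the fast troponin T that ties the troponin complex to tropomyosin, was the next, at 494 ± 248 RPKM in MC903 ears and 1001 ± 391 RPKM in vehicle ears, and its fold change was not called (log2 fold change -1.02 ± 0.40 (SE), adjusted p = 0.0597).

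Tnni1, the slow inhibitory subunit of troponin, had the smallest fold change of the 38 members. Tnni1 had 44.7, 25.7, 34.2 and 22.5 CPM in MC903 replicates 1 to 4, against 29.0, 37.0, 63.8 and 5.93 CPM in vehicle replicates 1 to 4. All 4 MC903 values lay within the range of the vehicle values, which ran from vehicle replicate 4 at the low end to vehicle replicate 3 at the high end (log2 fold change -0.09 ± 0.50 (SE), adjusted p = 0.895). Its fast counterpart Tnni2 had 215, 117, 184 and 306 CPM in MC903 replicates 1 to 4, against 473, 475, 392 and 166 CPM in vehicle replicates 1 to 4 (log2 fold change -0.87 ± 0.34 (SE), adjusted p = 0.0607). Tropomyosin gene Tpm2, whose product covers the myosin sites of actin in slow and fast fibres and in smooth muscle, had 404, 302, 377 and 649 CPM in MC903 replicates 1 to 4, against 596, 569.9, 658 and 233 CPM in vehicle replicates 1 to 4. Tpm2 overlapped throughout, and MC903 replicate 4 was close to the highest vehicle library (log2 fold change -0.25 ± 0.32 (SE), adjusted p = 0.556). Nebulin gene Neb, the ruler along the thin filament, averaged 485 ± 226 CPM in MC903 ears and 929.7 ± 382 CPM in vehicle ears (log2 fold change -0.94 ± 0.39 (SE), adjusted p = 0.0729). The slow troponin T gene Tnnt1 averaged 29.5 ± 6.85 CPM in MC903 ears and 58.7 ± 32.1 CPM in vehicle ears (log2 fold change -0.99 ± 0.39 (SE), adjusted p = 0.0598). The slow troponin C gene Tnnc1, the calcium sensor of slow fibres and heart, averaged 5.79 ± 1.95 CPM in MC903 ears and 11.7 ± 8.89 CPM in vehicle ears (log2 fold change -1.01 ± 0.53 (SE), adjusted p = 0.144). Its values in vehicle ears spread from 2.25 to 23.4 CPM and enclosed all MC903 values.

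Tnnc2, the fast calcium sensor, is uncertain in these counts. It shares 74.0% of its exon bases with Ube2c, a cell cycle gene on the opposite strand, and no step of the library protocol marks strand. Tnnc2 had 6.61, 13.8, 9.34 and 27.6 CPM in MC903 replicates 1 to 4, against 28.9, 18.7, 34.2 and 9.87 CPM in vehicle replicates 1 to 4, and the groups overlapped (log2 fold change -0.69 ± 0.44 (SE), adjusted p = 0.231). Ube2c rose in MC903 ears, with 58.6, 60.7, 53.3 and 39.4 CPM in MC903 replicates 1 to 4, against 16.7, 12.9, 12.3 and 10.8 CPM in vehicle replicates 1 to 4 (log2 fold change 2.01 ± 0.18 (SE), adjusted p = 9.52e-06). The part of Ube2c reads in the Tnnc2 values was not tested, nor was a loss of Tnnc2 reads over the shared bases. In vehicle ears Tnnc2 averaged 28.7 RPKM, against 252 RPKM for Tnni2 and 1001 RPKM for Tnnt3, the other fast troponin genes. Opposite-strand neighbours also covered 31.9% of the exon bases of Ckm and 21.9% of those of Atp2a1, where the neighbour Rabep2 averaged 18.0 ± 0.481 CPM in MC903 ears and 21.0 ± 1.79 CPM in vehicle ears, well under the level of Atp2a1.

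Of the 10 thick filament genes, 3 fell and 7 did not pass the test, with a median log2 fold change of -0.99. Myh4, the myosin heavy chain of the fastest fibres (chr11:67238029-67260446 in mm10, plus strand), had 187, 90.5, 169 and 553 CPM in MC903 replicates 1 to 4, against 670.4, 1145, 991 and 354 CPM in vehicle replicates 1 to 4. Only MC903 replicate 4 reached into the vehicle range, where it exceeded vehicle replicate 4. Myh4 fell (log2 fold change -1.66 ± 0.51 (SE), adjusted p = 0.0235), with the call kept without MC903 replicate 4, vehicle replicate 1 or vehicle replicate 4 and lost without each of the other 5 libraries. Myh1 and Myh2, the heavy chains of the other fast fibres, lie beside Myh4 on chromosome 11. Myh1 had 154, 119.7, 147 and 387 CPM in MC903 replicates 1 to 4, against 411, 249, 385 and 92.9 CPM in vehicle replicates 1 to 4, and MC903 replicate 4 lay among the high vehicle libraries (log2 fold change -0.50 ± 0.45 (SE), adjusted p = 0.403). Myh2 averaged 40.6 ± 19.2 CPM in MC903 ears and 71.5 ± 39.4 CPM in vehicle ears (log2 fold change -0.82 ± 0.39 (SE), adjusted p = 0.117).

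Myh7, the heavy chain of slow fibres and heart, had the lowest level per kilobase of the 38 members, at 0.356 ± 0.106 RPKM in MC903 ears and 1.38 ± 1.27 RPKM in vehicle ears (SD, n = 4 each). Myh7 had 3.31, 4.17, 2.72 and 2.03 CPM in MC903 replicates 1 to 4, against 5.71, 14.4, 26.0 and 1.31 CPM in vehicle replicates 1 to 4. Vehicle replicate 4 was the lowest of all 8 libraries, and vehicle replicates 2 and 3 were the highest (log2 fold change -1.96 ± 0.66 (SE), adjusted p = 0.0338). Its light chain partner Myl3 had 4.93, 3.92, 4.57 and 1.95 CPM in MC903 replicates 1 to 4, against 12.7, 13.8, 15.9 and 1.50 CPM in vehicle replicates 1 to 4. The MC903 libraries lay between vehicle replicate 4 and the other vehicle libraries (log2 fold change -1.50 ± 0.54 (SE), adjusted p = 0.0426). The log2 fold change of Myh7 was -1.22 without vehicle replicate 3 (adjusted p = 0.136) and -1.29 in limma-voom (adjusted p = 0.243). When 1 library was left out, Myh7 kept its call without vehicle replicate 1 or vehicle replicate 4, and Myl3 only without vehicle replicate 4. The slow regulatory light chain Myl2 had 4.25, 7.50, 6.56 and 1.70 CPM in MC903 replicates 1 to 4, against 8.25, 14.6, 17.5 and 2.31 CPM in vehicle replicates 1 to 4, with overlap and no call (log2 fold change -1.09 ± 0.54 (SE), adjusted p = 0.126).

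The fast light chains had smaller fold changes, which did not pass the test. Mylpf, the fast regulatory light chain, averaged 357 ± 106 CPM in MC903 ears and 535 ± 219.9 CPM in vehicle ears (log2 fold change -0.58 ± 0.33 (SE), adjusted p = 0.181), and Myl1, the fast essential light chain, averaged 567 ± 184 CPM in MC903 ears and 826 ± 334 CPM in vehicle ears (log2 fold change -0.54 ± 0.35 (SE), adjusted p = 0.232). Myosin-binding protein C stabilises the thick filament and exists in a slow form, Mybpc1, and a fast form, Mybpc2. Mybpc2 had 25.6, 8.25, 17.8 and 63.0 CPM in MC903 replicates 1 to 4, against 63.6, 119, 73.4 and 28.7 CPM in vehicle replicates 1 to 4, a wide spread in both groups (log2 fold change -1.31 ± 0.54 (SE), adjusted p = 0.0709). Mybpc1 averaged 91.8 ± 53.0 CPM in MC903 ears and 170.4 ± 88.0 CPM in vehicle ears (log2 fold change -0.89 ± 0.45 (SE), adjusted p = 0.130). Short reads of 50 bases can be shared by the myosin paralogues: of the words of that length in Myh1, 30.5% also occur in other genes, most often Myh2, and the share was 24.6% for Myh2, 18.9% for Myh4 and 20.0% for Myh7, most often with the cardiac gene Myh6. How the authors' counting treated such reads was not given in the sources used here.

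Among the 10 genes of the Z-disc and cytoskeleton, 1 fell and 9 did not pass the test, with a median log2 fold change of -0.67. Actn3, the alpha-actinin that anchors thin filaments in fast fibres, had 14.5, 7.58, 17.2 and 48.4 CPM in MC903 replicates 1 to 4, against 70.3, 103, 65.8 and 26.9 CPM in vehicle replicates 1 to 4. Only MC903 replicate 4 exceeded the lowest vehicle library, which was vehicle replicate 4. Actn3 fell (log2 fold change -1.60 ± 0.51 (SE), adjusted p = 0.0266), and the call was kept only without MC903 replicate 4 or vehicle replicate 4. Its paralogue Actn2, present in all fibres and in heart, averaged 77.0 ± 40.9 CPM in MC903 ears and 118 ± 59.5 CPM in vehicle ears and was not called (log2 fold change -0.62 ± 0.42 (SE), adjusted p = 0.262). Ttn, the giant spring that spans the sarcomere from Z-disc to midline, had 892, 778, 1289 and 2617 CPM in MC903 replicates 1 to 4, against 3487, 2981, 3003 and 1184 CPM in vehicle replicates 1 to 4. MC903 replicates 3 and 4 exceeded vehicle replicate 4, and replicates 1 and 2 lay below all vehicle libraries (log2 fold change -0.93 ± 0.41 (SE), adjusted p = 0.0913).

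The intermediate filament gene Des, which links neighbouring Z-discs and is also made in smooth muscle and heart, had 67.3, 51.2, 77.7 and 107 CPM in MC903 replicates 1 to 4, against 129, 96.7, 99.9 and 45.1 CPM in vehicle replicates 1 to 4. The groups overlapped broadly (log2 fold change -0.29 ± 0.29 (SE), adjusted p = 0.453). The remaining 6 genes were Ldb3, which stabilises the Z-disc, Smpx, a small cytoskeletal protein of muscle, Myot, Tcap, Myoz1 and Xirp2. Their log2 fold changes ran from -0.96 for Myot, an actin-bundling protein of the Z-disc, to -0.52 for Myoz1, which tethers calcineurin to the fast-fibre Z-disc, and none passed the test. Tcap, the cap on the end of titin, averaged 60.9 ± 22.1 CPM in MC903 ears and 96.0 ± 36.5 CPM in vehicle ears, and Xirp2, an actin-binding repeat protein of the muscle membrane junctions, averaged 151 ± 56.2 CPM in MC903 ears and 221 ± 109 CPM in vehicle ears. Vehicle replicate 4 was again the lowest vehicle library for each of these 6.

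Of the 7 calcium-handling genes, 5 fell and 2 did not pass the test in the full fit, with a median log2 fold change of -1.07, where 20.2% of all genes tested were called lower. The count depended on single libraries. It was 0 without MC903 replicate 1, MC903 replicate 3, vehicle replicate 1 or vehicle replicate 2, 1 without MC903 replicate 2 or vehicle replicate 3, and 7 without MC903 replicate 4 or vehicle replicate 4. Atp2a1, the pump that returns calcium to the store in fast fibres (chr7:126445858-126463108 in mm10, minus strand), had 179, 84.5, 156 and 468 CPM in MC903 replicates 1 to 4, against 669, 681, 636 and 258 CPM in vehicle replicates 1 to 4. MC903 replicate 4 alone exceeded a vehicle library, and it exceeded only vehicle replicate 4 (log2 fold change -1.34 ± 0.47 (SE), adjusted p = 0.0394). Pvalb, the soluble calcium buffer of the fastest fibres (chr15:78191114-78206400 in mm10, minus strand), had 44.1, 22.3, 44.5 and 88.1 CPM in MC903 replicates 1 to 4, against 163, 183, 126 and 50.3 CPM in vehicle replicates 1 to 4. The pattern over libraries was the same as for Atp2a1, and Pvalb fell with the smallest adjusted p of the members (log2 fold change -1.39 ± 0.42 (SE), adjusted p = 0.0214). It kept the call in 4 of the 8 fits with 1 library left out, more than any other of the 38 members.

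Of 5 genes of the release apparatus, 3 were called lower in the full fit, where 20.2% of all genes tested were called lower. Ryr1, the calcium release channel of the store, had 35.1, 23.4, 35.6 and 60.8 CPM in MC903 replicates 1 to 4, against 122, 83.8, 82.2 and 35.4 CPM in vehicle replicates 1 to 4 (log2 fold change -1.06 ± 0.35 (SE), adjusted p = 0.0300). Cacna1s, the voltage sensor in the surface tubule that opens that channel, had 13.3, 8.58, 11.9 and 21.9 CPM in MC903 replicates 1 to 4, against 41.2, 35.5, 29.1 and 11.4 CPM in vehicle replicates 1 to 4 (log2 fold change -1.07 ± 0.36 (SE), adjusted p = 0.0343). Trdn, which anchors the calcium store protein at the channel, had 60.3, 73.1, 93.6 and 146 CPM in MC903 replicates 1 to 4, against 281, 172, 199 and 76.4 CPM in vehicle replicates 1 to 4 (log2 fold change -0.97 ± 0.36 (SE), adjusted p = 0.0499). In each of these genes MC903 replicate 4 lay above vehicle replicate 4 and below the other vehicle libraries. Casq1, the calcium store protein itself, had 49.3, 25.0, 36.3 and 116 CPM in MC903 replicates 1 to 4, against 127, 189, 190.0 and 35.5 CPM in vehicle replicates 1 to 4 and did not pass the test (log2 fold change -1.26 ± 0.53 (SE), adjusted p = 0.0753). Jph1, which holds the tubule and the store together, averaged 5.19 ± 2.91 CPM in MC903 ears and 9.06 ± 3.21 CPM in vehicle ears (log2 fold change -0.81 ± 0.37 (SE), adjusted p = 0.101). Across the fits with 1 library left out, the calcium genes called lower numbered 7 of 7 where MC903 replicate 4 or vehicle replicate 4 was the one omitted. They numbered 1 where it was MC903 replicate 2 or vehicle replicate 3, and 0 for the other 4 libraries. Apart from Pvalb, the called genes of this group kept their calls in 2 of the 8 fits.

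Energy and oxygen supply was represented by Ckm and Mb, and neither passed the test. Ckm, the creatine kinase that rebuilds ATP in muscle, had 463, 169, 361 and 704 CPM in MC903 replicates 1 to 4, against 963, 1326, 994 and 344 CPM in vehicle replicates 1 to 4 (log2 fold change -1.10 ± 0.44 (SE), adjusted p = 0.0661). Mb, the oxygen store of oxidative fibres and heart, had 110.2, 64.4, 104 and 145 CPM in MC903 replicates 1 to 4, against 304, 176, 184 and 76.4 CPM in vehicle replicates 1 to 4 (log2 fold change -0.81 ± 0.35 (SE), adjusted p = 0.0873). In both genes vehicle replicate 4 lay within the MC903 range and the other vehicle libraries lay above it.

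Fast and slow fibre genes were compared next. Of the 13 fast genes 4 fell (median log2 fold change -0.87), of the 7 slow genes 2 fell (median -1.01), and of the 18 genes of both fibre types 4 fell (median -0.93), where 20.2% of all genes tested were called lower. With 1 library left out, the counts ran from 0 to 10 for fast genes, 0 to 6 for slow genes and 0 to 15 for genes of both, each highest without vehicle replicate 4 and each 0 without MC903 replicate 1, MC903 replicate 3 or vehicle replicate 2. A set of 6 pairs of paralogues, each a slow and a fast form of the same protein, gave a ratio that does not depend on how a library is scaled. Per kilobase, slow Myh7 per 100 of fast Myh4 was 1.25, 3.26, 1.14 and 0.262 in MC903 replicates 1 to 4, against 0.600, 0.886, 1.84 and 0.266 in vehicle replicates 1 to 4. The ratio spread widely within both groups and the groups overlapped. Slow Tnni1 per 100 of fast Tnni2 was 8.64, 9.13, 7.73 and 3.06 in MC903 replicates 1 to 4, against 2.55, 3.24, 6.77 and 1.50 in vehicle replicates 1 to 4. MC903 replicates 1 to 3 lay above all vehicle libraries, and MC903 replicate 4 lay among them.

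In a two-sided exact permutation test of the log2 ratio, MC903 minus vehicle, the Tnni1 to Tnni2 difference was 1.12 (p = 0.0857, adjusted p = 0.514 over the 6 pairs). The smallest p that 4 against 4 libraries allow is 0.0286. For Myh7 over Myh4 the difference was 0.56 (exact permutation p = 0.60, adjusted 0.857), and for Tnnt1 over Tnnt3 it was 0.25 (exact permutation p = 0.714, adjusted 0.857). Tnnc1 over Tnnc2, which carries the doubt about Ube2c, differed by 0.08 (exact permutation p = 0.971, adjusted 0.971). The light chain pairs had differences of the opposite sign, with -0.42 for Myl2 over Mylpf (exact permutation p = 0.629, adjusted 0.857) and -0.67 for Myl3 over Myl1 (exact permutation p = 0.371, adjusted 0.857). None of the 6 differences passed this test, and all 6 pairs of groups overlapped. MC903 replicate 4 had the lowest MC903 ratio in all 6 pairs.

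**Figure D4:**
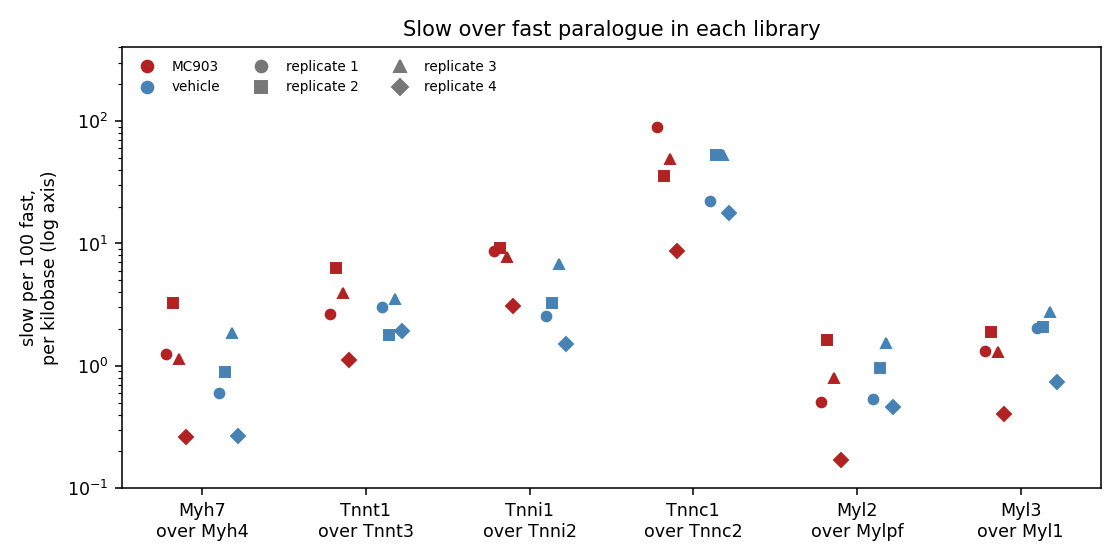
Slow per 100 of the fast paralogue, per kilobase, on a log axis for 6 pairs, with MC903 libraries at the left of each pair, vehicle libraries at the right and a symbol for each replicate. The diamonds of MC903 replicate 4 are the lowest MC903 points in all 6 pairs, and the groups overlap in each. The height of the Tnnc1 over Tnnc2 points carries the doubt about bases that Tnnc2 shares with Ube2c.

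To describe how members differ among themselves, each member's log2 RPKM was set against that of the median member of the same library. For a member also made outside skeletal muscle, such a relative level can still vary with the muscle content of an ear. This scale has no test here, since the median rests on the same members. No share over all genes was taken on it either, so the counts of members without overlap have no background. All 4 MC903 libraries lay below all 4 vehicle libraries for 3 of the 38 members (7.89%), Actn3, Atp2a1 and Pvalb, and above them for 1 of 38 (2.63%), Tpm2. The relative level of Actn3 was -1.79, -2.45, -1.68 and -1.08 in MC903 replicates 1 to 4, against -0.87, -0.05, -1.05 and -0.49 in vehicle replicates 1 to 4. For Atp2a1 it was 1.57, 0.76, 1.23 and 1.92 in MC903 replicates 1 to 4, against 2.11, 2.40, 1.96 and 2.50 in vehicle replicates 1 to 4. For Pvalb it was 1.29, 0.58, 1.16 and 1.26 in MC903 replicates 1 to 4, against 1.82, 2.25, 1.36 and 1.89 in vehicle replicates 1 to 4. Relative to the other muscle genes of the same ear, these 3 genes of fast fibres were lower in each MC903 library, replicate 4 included, than in any vehicle library. Tpm2 showed the reverse order, at 3.001, 2.86, 2.76 and 2.66 in MC903 replicates 1 to 4, against 2.20, 2.40, 2.27 and 2.62 in vehicle replicates 1 to 4. Its highest vehicle value was in replicate 4, the vehicle library with the least muscle RNA. Its lowest MC903 value was in replicate 4, the MC903 library with the most. The part of smooth muscle in the Tpm2 values was not tested. Myh4 had a mean relative level of 0.71 in MC903 libraries and 1.92 in vehicle libraries, with MC903 replicate 4 inside the vehicle range. The mean relative level was lower in MC903 than in vehicle libraries for 9 of the 13 fast genes, among them Mybpc2 (difference -0.87), Tnnt3 (-0.39), Tnni2 (-0.19), Tnnc2 (-0.09) and Myh2 (-0.09), whose groups overlapped. It was higher for the other 4, Myl1, Mylpf, Myh1 and Myoz1, with means of 3.69, 4.26, 0.48 and 0.88 in MC903 libraries and 3.52, 4.13, 0.29 and 0.86 in vehicle libraries. The mean relative level was also lower for 6 of the 7 slow genes and 12 of the 18 genes of both fibre types. A lower mean was therefore not particular to fast genes.

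**Figure D5:**
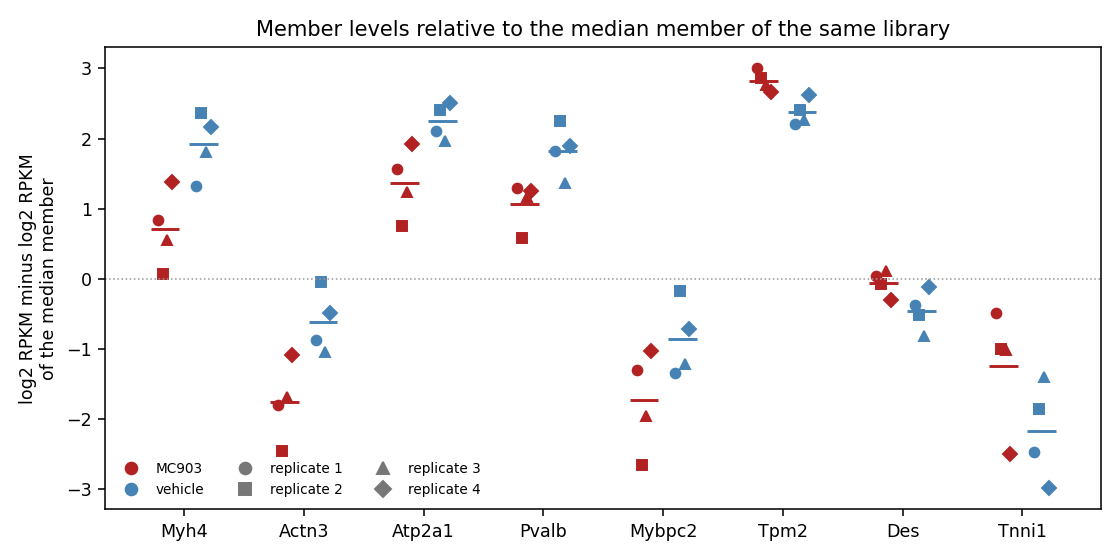
Log2 RPKM of 8 members minus log2 RPKM of the median member in the same library, MC903 libraries at the left of each gene and vehicle libraries at the right, with group means as bars. Actn3, Atp2a1 and Pvalb lie lower in all 4 MC903 libraries and Tpm2 higher, while Myh4, Mybpc2, Des and Tnni1 overlap.

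Other genes of muscle were read from lists kept apart from the members. The counts in these lists, and in the marker lists of other tissues, stand beside 20.2% of all genes tested called lower and 21.3% called higher. Of 36 other sarcomere and cytoskeleton genes tested, 13 fell and 1 rose (median log2 fold change -0.80), with 2 to 25 lower when 1 library was left out, the fewest without MC903 replicate 2, vehicle replicate 1 and vehicle replicate 3 and the most without vehicle replicate 4. Lmod3, which nucleates thin filaments, had 6.27, 6.75, 7.22 and 17.7 CPM in MC903 replicates 1 to 4, against 35.8, 27.7, 38.6 and 9.99 CPM in vehicle replicates 1 to 4 and fell in the full fit and in all 8 fits with 1 library left out (log2 fold change -1.57 ± 0.42 (SE), adjusted p = 0.0119). Mylk2, the skeletal myosin light chain kinase, fell (log2 fold change -1.22 ± 0.35 (SE), adjusted p = 0.0165). Fhl3, a LIM-domain protein, rose (log2 fold change 0.75 ± 0.22 (SE), adjusted p = 0.0182). Of 28 other genes of excitation and the calcium store, 4 fell and 3 rose (median log2 fold change -0.85), both smaller shares than over all genes tested, with 0 lower without vehicle replicate 1, vehicle replicate 3 or any of MC903 replicates 1 to 3, and 21 lower without vehicle replicate 4. Those that fell were the calcium channel subunit genes Cacna2d1 (-0.92) and Cacnb1 (-0.87), the chloride channel gene Clcn1 (-1.25) and the pump inhibitor gene Pln (-0.92), as log2 fold changes. Those that rose included Fkbp1a (0.50), which is expressed in most cell types, and the acetylcholine receptor subunit gene Chrnb1 (0.76). Of 23 muscle energy genes, 8 fell and 2 rose (median log2 fold change -0.85), with 1 lower without MC903 replicate 3 or vehicle replicate 3 and 16 lower without vehicle replicate 4. The glycolytic genes Pgk1 (1.23) and Ldha (0.80), also used by most cells, rose, and the phosphorylase kinase subunit gene Phka1 (-0.85) fell.

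Of 18 myogenic regulators and satellite cell genes tested, 6 fell and 0 rose (median log2 fold change -0.94), with 4 lower without MC903 replicate 2 or vehicle replicate 3 and 10 lower without vehicle replicate 4. The homeobox gene Six4 had 0.945, 1.58, 2.25 and 3.25 CPM in MC903 replicates 1 to 4, against 5.89, 8.45, 6.00 and 2.94 CPM in vehicle replicates 1 to 4 (log2 fold change -1.54 ± 0.38 (SE), adjusted p = 0.00773). Eya4, a transcriptional coactivator, averaged 0.602 ± 0.356 CPM in MC903 ears and 1.61 ± 0.356 CPM in vehicle ears (log2 fold change -1.41 ± 0.39 (SE), adjusted p = 0.0128), and the growth factor gene Igf2 averaged 5.66 ± 0.774 CPM in MC903 ears and 14.1 ± 3.95 CPM in vehicle ears (log2 fold change -1.32 ± 0.20 (SE), adjusted p = 4.39e-04). These 3 genes were called lower in all 8 fits with 1 library left out, and the 4 MC903 libraries lay below the 4 vehicle libraries for Igf2 and Eya4. Eya4 and Igf2 are also expressed outside muscle. Also lower were Mef2c, a muscle and vascular transcription factor (log2 fold change -0.97 ± 0.29 (SE), adjusted p = 0.0190), and Mstn, the fibre-made inhibitor of muscle growth (log2 fold change -1.35 ± 0.47 (SE), adjusted p = 0.0385).

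Among 12 muscle atrophy and stress genes, 4 fell and 4 rose (median log2 fold change -0.05). Foxo1, the transcription factor that drives atrophy genes, had 38.5, 44.7, 43.6 and 48.3 CPM in MC903 replicates 1 to 4, against 86.1, 84.8, 92.2 and 98.8 CPM in vehicle replicates 1 to 4, with no overlap (log2 fold change -1.05 ± 0.12 (SE), adjusted p = 4.13e-05). Klf15, a glucocorticoid target in muscle, averaged 6.37 ± 1.79 CPM in MC903 ears and 15.6 ± 1.53 CPM in vehicle ears (log2 fold change -1.29 ± 0.19 (SE), adjusted p = 3.74e-04). Fbxo32, an atrophy ubiquitin ligase, had 31.2, 32.5, 34.1 and 53.1 CPM in MC903 replicates 1 to 4, against 85.1, 66.5, 85.2 and 60.9 CPM in vehicle replicates 1 to 4, again with no overlap (log2 fold change -0.98 ± 0.19 (SE), adjusted p = 0.00179). The companion ligase Trim63 averaged 10.1 ± 6.40 CPM in MC903 ears and 13.5 ± 5.17 CPM in vehicle ears and was not called (log2 fold change -0.43 ± 0.38 (SE), adjusted p = 0.380). Sesn1 also fell (-0.90), and Gadd45a (1.64), Eif4ebp1 (1.12), Mt2 (0.65) and Mt1 (0.52) rose. Foxo1, Klf15, Sesn1, Gadd45a, Eif4ebp1 and the metallothioneins are expressed in many skin cells, so these values are not of muscle alone. The part of muscle in the Fbxo32 values was not tested.

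Markers of other contractile cells were measured beside the members, because Des, Tpm2, Actn2, Myh7, Myl2, Myl3 and Tnnc1 are also made in heart or smooth muscle. The 12 smooth muscle markers summed to 394 to 566 CPM in MC903 libraries and 388 to 572 CPM in vehicle libraries, and 2 of them fell, among them Lmod1 (-0.87), while Actg2, the enteric actin, rose (1.47), both as log2 fold changes. Of 9 cardiac markers, the atrial myosin gene Myh6 had at most 0.0811 CPM in MC903 libraries and 0.400 CPM in vehicle libraries, and the atrial peptide gene Nppa had counts in 1 library only, vehicle replicate 2. The atrial light chain gene Myl7 rose, with 44.2, 28.8, 67.5 and 19.5 CPM in MC903 replicates 1 to 4, against 0.177, 0.922, 0.343 and 0.562 CPM in vehicle replicates 1 to 4 (log2 fold change 6.36 ± 0.50 (SE), adjusted p = 4.11e-06). Tnni3, the cardiac inhibitory troponin, fell (log2 fold change -0.80 ± 0.28 (SE), adjusted p = 0.0392). Tnnt2, the cardiac troponin T, fell without overlap, averaging 11.3 ± 1.99 CPM in MC903 ears and 27.4 ± 3.93 CPM in vehicle ears (log2 fold change -1.27 ± 0.16 (SE), adjusted p = 1.26e-04).

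Markers of other ear tissues also differed between the groups, and their part in the muscle result was not tested. Schwann cell and nerve markers fell for 10 of 10 genes, with sums of 541 to 643 CPM in MC903 libraries and 978 to 1361 CPM in vehicle libraries. Cartilage markers fell for 12 of 13 tested, with sums of 347 to 412 CPM in MC903 libraries and 741 to 965 CPM in vehicle libraries. White adipocyte markers fell for 6 of 11, with sums of 1286 to 3466 CPM in MC903 libraries and 3256 to 8457 CPM in vehicle libraries. Leukocyte markers rose for 8 of 8 genes, with sums of 1167 to 1693 CPM in MC903 libraries and 418 to 557 CPM in vehicle libraries. Keratinocyte markers rose for 4 of 10 genes, Krt1, Krt14, Dsc1 and Sfn, with sums of 19171 to 21696 CPM in MC903 libraries and 12118 to 12615 CPM in vehicle libraries. Salivary markers fell for 6 of 8 tested in the full fit, but without vehicle replicate 2, which alone holds the high salivary sum, 1 was called lower and 1 higher. The sums of the Schwann, cartilage, leukocyte and keratinocyte lists did not overlap between groups, and for Schwann and cartilage markers vehicle replicate 4 lay with the other vehicle libraries. The 10 Schwann genes kept 9 or 10 calls and the 13 cartilage genes 9 to 11 calls when 1 library was left out.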

How the data were processed

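RNA of whole ear skin was sequenced in 8 libraries, as single reads of 50 bases after ribosomal RNA removal and random-hexamer priming, per the labels' protocols. The authors deposited 1 table per library. It holds raw counts for each Ensembl gene, plus CPM, RPKM and the gene length, per the file headers. Per the submitters' processing notes, the software was STAR 2.0.4b, Subread and featureCounts 1.4.5 on mm10. Not given in the sources used here were the annotation release, the strand setting and the treatment of multiply mapped reads. CPM and RPKM as deposited equalled values recomputed from the counts and served for that check alone.

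Groups came from the sample titles. A symbol table named 40254 of 41388 identifiers. Counts were filtered with filterByExpr by group and scaled with TMM. The test was the quasi-likelihood F-test of edgeR 4.0.16 (R 4.3.3), with no covariate beside group. Benjamini-Hochberg adjustment covered the 16105 genes tested, at a threshold of 0.05. SEs of log2 fold changes were obtained from the F statistic. RPKM values in the results are TMM-adjusted CPM per kilobase of deposited length. Slow over fast ratios used counts plus 0.5 and a two-sided exact permutation test computed with numpy 2.4.6 under Python 3.11.15. Promoters and their motifs were read from RefSeq.

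The rule for named genes takes all 38 members, and from the companion lists the genes with the smallest p and any gene that a small count singles out. The members and lists were chosen with earlier results of these data known. Other companion genes named, such as Trim63, were picked with their values known. From the lists, Tmem8c and Gm7325 were not matched and not analysed here. A few companion genes are not reported here. Alternatives were other scalings and filters, DESeq2 1.42.0, limma-voom (limma 3.58.1), a robust dispersion, a block for the replicate number, and leaving out each library. Detection floors cover counting error only, since PCR reads carry no molecular identifiers here.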

Additional observations from a re-analysis of the deposited data

Results flagged for a closer look

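The 4 values of each group were screened for a library far from the others, for 76 sets of member values and 12 sets of paralogue ratios. A library was flagged where its gap to the nearest other exceeded 0.829 of the group's range. Chance alone flags about 1 in 20 such groups, and 5 of the 88 were flagged here.

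MC903 replicate 4 stood apart on the high side for 2 fast myosin genes, with 386.6 CPM of Myh1 and 69.1 CPM of Myh2. Vehicle replicate 4 stood apart on the low side for the fast troponin T gene Tnnt3, with 581 CPM, and for the calcium pump gene Atp2a1, with 258 CPM. MC903 replicate 4 also had a log2 Tnni1 over Tnni2 ratio of -3.76, far below the other 3 MC903 libraries. What sets these libraries apart was not tested.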

How the results depend on the processing

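Against 10 members lower in the full fit, the count was 27 with library sizes as the only scaling, 19 with no filter, 6 with limma-voom and 2 with robust dispersion. It was 15 with upper quartile factors, 9 with DESeq2 size factors, 9 with a stricter filter and 12 with DESeq2, and from 0 to 31 when 1 library was left out. The cause was not tested. Over all genes tested, 18.7% were called lower with library sizes alone and 12.3% with no filter. That share was 19.9% with limma-voom and with robust dispersion, 24.4% with upper quartile factors and 19.6% with DESeq2 size factors. It was 20.9% with the stricter filter and 20% with DESeq2. No setting called a member higher. Scaling by library sizes or upper quartiles moved the median of all genes to -0.11 on the log2 scale. Of 646 member values under these settings, 489 kept their direction and side of the threshold, 73 gained a call, 79 lost one and 5 changed sign. All 5 were Tnni1, with 0.28 in limma-voom, 0.22 with the replicate block and -0.45 to 0.41 with 1 library left out.

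Correlations of same-numbered deviations were 0.0568, -0.139, -0.118 and -0.204, which gave no sign that the replicate numbers pair the libraries. With 4 libraries in each group, these correlations cannot exclude a pairing. With the replicate number as a block, 8 members were lower, against 17% of all genes tested.

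With 1 library left out, the log2 ratio differences ran from 0.0106 to 1.22 for Myh7 over Myh4, -0.124 to 0.714 for Tnnt1 over Tnnt3, 0.781 to 1.51 for Tnni1 over Tnni2, -0.382 to 0.739 for Tnnc1 over Tnnc2, -0.915 to 0.170 for Myl2 over Mylpf and -1.08 to -0.205 for Myl3 over Myl1. The smallest adjusted p of the exact permutation test with 1 library left out was 0.343. With 3 libraries in a group few splits exist, which limits how small such a p can be. Myh7, Myl2, Myl3, Tnnc1, Jph1 and Eya4 rest on few counts, which limits their precision and that of the ratios built on them.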
